A study of Mus musculus with 12 samples.

Results

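Gene expression in the mouse cecum was compared between tissue taken 3 h after cauterization and tissue from sham-operated animals, to describe the earliest time point of an injury that leads to abdominal adhesions. The members of the comparison were the 3 arrays labelled 3 h after cauterization and the 3 arrays labelled sham control, chosen by their treatment labels from the 12 arrays of the series. Each array held the RNA of 1 cecum sample, labelled with 1 dye and hybridised to an Agilent mouse gene expression design, with 56605 probes for 37074 gene names. Each such name is counted as a gene here, and 10314 of the probes have only an accession or a position as theirs. The mice were C57BL/6, bred in-house from Jackson animals under specific pathogen-free conditions, were labelled male, and had no age in the sources used here, where the samples are called biological triplicates. In the 3 h group the cecum was exposed through a midline incision under pentobarbital, touched with bipolar forceps in coagulation mode and collected 3 h later. The steps of the sham operation are not given in the sources used here, and its tissue was taken at 0 h, so the hours after surgery, the recovery from anaesthesia and the time of day cannot be told apart from the burn itself. No gene deletion, and no agent other than pentobarbital, is given for either group.

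The serosal surface of the cecum is covered by a single layer of mesothelial cells, under which lie smooth muscle, enteric nerves, fibroblasts, vessels and the mucosa with its epithelium. A burn of this surface kills cells, opens vessels and starts coagulation, and surviving cells answer within minutes to hours with immediate early transcription factors, heat shock proteins, chemokines and cytokines that draw neutrophils from the blood. Fibrin laid down on the surface is removed by plasmin, and persistent fibrin is the scaffold on which adhesions form. In bulk tissue, fewer cells of a type and less RNA per cell cannot be told apart.

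The tissue label was checked against defining markers, and all 21 surface epithelium markers and all 20 smooth muscle markers were well above background on all 6 arrays. The sex label was not borne out, since the scanner software put Xist, the RNA that coats the inactive X chromosome, above background on each of the 6 arrays, the Y-linked Ddx3y and Eif2s3y on 0, Uty on 1 sham array and the brightest probe of Kdm5d on all 6. An array had between 60.2% and 65% of its probes above background, and all 6 arrays lay on 1 slide, where the sham arrays held the first 3 columns of row 1 and the 3 h arrays held the fourth column of row 1 and the first 2 columns of row 2. Correlations across probes were 0.990 to 0.992 within the sham group, 0.985 to 0.988 within the 3 h group and 0.972 to 0.979 between them, with genes not being independent replicates. A level is a log2 intensity relative to the array's own 75th percentile, so that 0 is that percentile and each step of 1 is a doubling. Differences are 3 h minus sham on that log2 scale. Genes were called where they differed more than 2-fold and limma, fitted over all 12 arrays, gave a Benjamini-Hochberg adjusted p below 0.05. An SE is that of the limma difference, with n = 3 per group throughout. Where a gene had several probes, the brightest is given. Besides the cases named below, Osmr, Stat3, Ptch1 and Smoc2 were called on 2 of 3 probes, Adamts9 on 3 of 4, Tnc, Sox9 and Col5a2 on 1 of 2 and Cdkn1a on 1 of 3. Junb, Nfkbiz, Hsp90aa1, Fkbp5, Per3, Gucy1a3, Wnt5a and Lipe were called on 2 of 3, Bnc2 on 2 of 4 and Bcl3, Has1, Btc, Hmox1, Krt36, Epor and Adrb3 on 1 of 2, and no further probe of theirs was above background throughout a group.

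At 3 h, 1200 genes were called higher, 3.24% of the 37074 tested, and 1520 were called lower, 4.1% of them. Of the 23226 genes above background on all arrays of 1 group, 1065 were called higher and 1328 lower. Shares of all genes given below are of the 37074, so that they include many dim probes. The rises were larger than the falls: 432 of the higher genes but 196 of the lower genes differed more than 4-fold, and 95 against 1 differed more than 16-fold. The median difference was 1.63 among genes called higher, -1.33 among genes called lower and 0.08 over all genes. The 2 groups did not overlap in 46.5% of all genes, in 1193 of those called higher and in 1509 of those called lower. A lack of overlap, where named below, thus adds little to a call. Scaling to the 75th percentile of the probes above background on all arrays moved the median of all genes from 0.08 to -0.03, and the differences below are to be read against that shift of 0.11. With normexp background correction, which pulls dim probes together, 630 genes were called higher and 207 lower, so that 75.3% of the calls were rises in place of 44.1%. Among the genes named below, the calls of Lif, Il17a, Il17f, Il23a, Il10, Pdk4, Has2, Wisp2, Tnc, Sele, Tlr5, Zfp521, Ptch1, Gli2, Axin2, Wnt5a, Grem1, Lmod1, Chrm2, Cyp2e1, Upk3b, Lrrn4, Rspo2, Dkk2, Hlf, Per3, Hamp, Gpm6a, Bnc2, Il1f6, Sox9, Epor, Lipe, Epgn and Col5a2 were lost under this correction. It moved the medians of 26 of the 50 gene lists by over 1.5 times, 22 of them towards 0, and these medians are given below for the lists that had the larger ones. Quantile normalization ended the calls of Fos, Hspb1, Bag3, Hspa8, Hspa5, Atf4, Krt18, Sox9, Cdkn1a, Grem1 and Cyp2e1, and the mean over a gene's probes those of Slc7a11, Rspo2, Smoc2, Sox9, Lipe, Cdkn1a and Col5a2. A fit to the 6 arrays alone ended those of Tslp, Wnt5a, Thrsp and Hspa5, and a floor on dim probes those of Il17a, Il23a, Wisp2, Gli2, Rspo2 and Epgn.

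**Figure D1:**
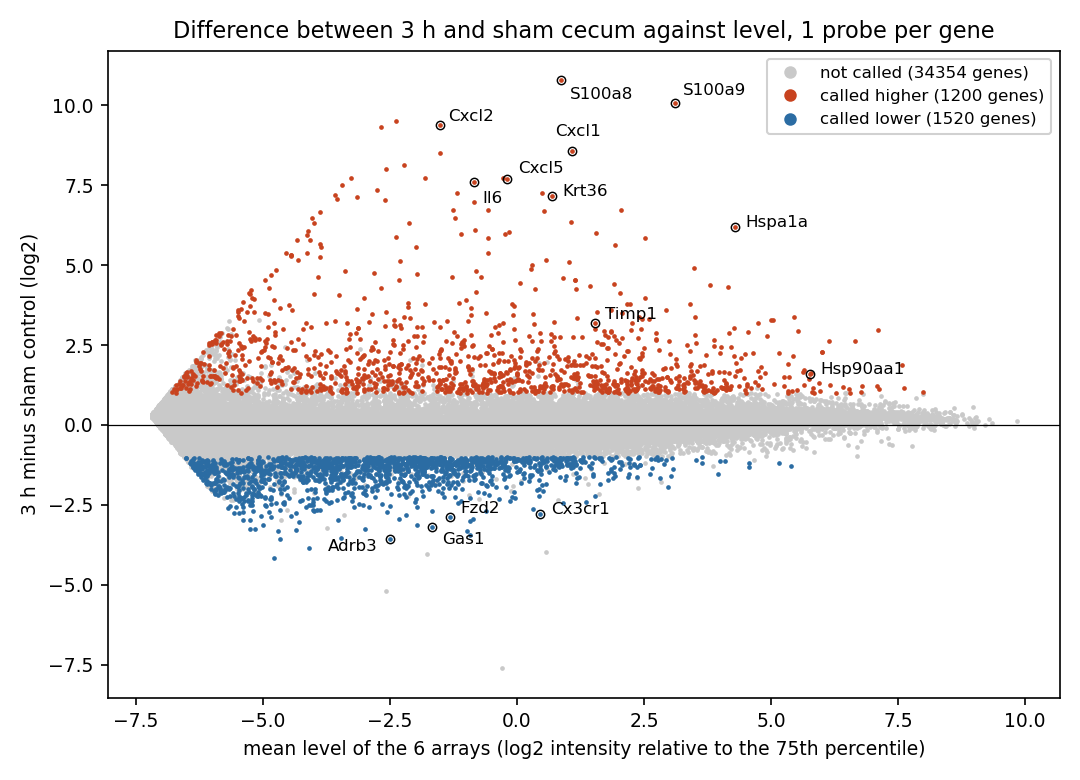
Each point is 1 gene, with its mean level over the 6 arrays on the x axis (log2 intensity relative to the 75th percentile) and 3 h minus sham control on the y axis (log2). The rises reached above 10 for S100a8 and S100a9, whereas the called falls stayed above -5.

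Chemokines that attract neutrophils were among the largest rises. Of 22 CXC chemokines and receptors on the array 11 were called higher and 0 lower, with a median difference of 1.11 (0.46 with normexp), and of 29 CC chemokines and receptors 12 were called higher and 1 lower, with a median of 0.80 (0.23 with normexp, and 0.4 with bounded genes at their bound). Cxcl1, a ligand of the neutrophil receptor CXCR2, had levels of -3.88, -3.32 and -2.43 on the sham arrays and of 5.19, 5.33 and 5.6 on the 3 h arrays. Its groups did not overlap, and it differed by 8.58 ± 0.37 (SE, n = 3), a 383-fold rise with an adjusted p of 2.87e-06 from limma. For Cxcl5, another CXCR2 ligand, sham levels of -4.61 to -3.43 and 3 h levels of 3.42 to 3.88 gave a difference of 7.7 ± 0.33. The neighbouring ligand genes Cxcl2 and Cxcl3 were above background on 0 of 3 sham arrays and on all 3 h arrays, at levels of 2.62 to 3.76 and of 1.33 to 2.4. They were at least 295-fold and at least 129-fold higher, as a bound against the dimmest probes called above background. Bounds here and below hold for the reported processing only. Under alternative settings the log2 differences went down to 5.02 for Cxcl2 and 3.95 for Cxcl3, which is less than these bounds. The receptor gene Cxcr2, carried by neutrophils, was at least 61.2-fold higher, with a lowest log2 difference of 2.96 under alternative settings.

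Among the CC ligands, Ccl3 and Ccl4, which attract macrophages and T cells, rose by 7.26 ± 0.58 and 6.71 ± 0.54. Their lowest 3 h levels, 3.29 and 2.96, were both on replicate 1. The monocyte attractants Ccl2 and Ccl7 rose by 5.84 ± 0.34 and 4.26 ± 0.32, and Ccl2 at 5.35 to 5.59 was among the least variable chemokines on the 3 h arrays. Ccrl2, an atypical receptor that holds chemerin on the cell surface, rose by 4.55 ± 0.54. Cx3cr1, the fractalkine receptor of resident macrophages, was the only gene of both lists called lower, from 1.78 to 1.98 on the sham arrays to -1.37 to -0.55 at 3 h. Its difference was -2.79 ± 0.25, with an adjusted p of 9.57e-05.

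The promoters of Cxcl1, Cxcl2 and Cxcl3 are shown with those of Il6 and Nfkbia, both described below, because all of them rose and all hold the letters GGGANTTTC, which lie within a common form of the NF-kB site. Each line is the 150 bases before the RefSeq start (build GRCm38.p6, 5′ to 3′ on the gene's strand) with each match on either strand in capitals. The windows are chr5:90891095-90891244 (+) for Cxcl1, chr5:90903749-90903898 (+) for Cxcl2, chr5:90785951-90786100 (+) for Cxcl3, chr5:30012964-30013113 (+) for Il6 and chr12:55492648-55492797 (-) for Nfkbia.
Cxcl1: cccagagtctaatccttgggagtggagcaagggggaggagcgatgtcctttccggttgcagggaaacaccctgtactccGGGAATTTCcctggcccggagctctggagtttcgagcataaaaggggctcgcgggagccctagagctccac
Cxcl2: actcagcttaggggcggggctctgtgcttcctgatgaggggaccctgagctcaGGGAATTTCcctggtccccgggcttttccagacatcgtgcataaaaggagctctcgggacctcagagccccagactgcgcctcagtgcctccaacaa
Cxcl3: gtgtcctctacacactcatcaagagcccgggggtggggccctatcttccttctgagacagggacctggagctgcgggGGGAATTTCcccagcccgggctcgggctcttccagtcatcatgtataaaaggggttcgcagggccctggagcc
Il6: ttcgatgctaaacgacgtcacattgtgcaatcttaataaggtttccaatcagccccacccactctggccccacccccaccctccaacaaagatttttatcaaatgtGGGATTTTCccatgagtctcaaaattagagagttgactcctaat
Nfkbia: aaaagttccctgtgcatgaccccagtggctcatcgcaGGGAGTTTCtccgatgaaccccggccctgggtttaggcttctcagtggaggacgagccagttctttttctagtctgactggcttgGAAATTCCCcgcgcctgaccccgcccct

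The match began 71 bases before the start of Cxcl1, 97 before Cxcl2, 73 before Cxcl3, 44 before Il6 and 113 and 28 before Nfkbia, where the nearer one lies on the other strand. Searched on both strands over 250 bases before the start, these letters were in 309 of 32851 promoters, 0.941%, and, counted by gene, in 299 of 27025 genes, 1.11%. They were in 4 of the 23 chemokine ligands with a promoter in the table, the 3 shown and Cxcl9, which was not called. In the NF-kB list described below they were in 3 of 17 genes, Nfkbia, Nfkb2 and Cyld, of which Cyld was not called. A match is a description of letters, and the motif was chosen after the values of these genes were known.

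The IL-1 family rose on both its activating and its restraining side. Of its 18 genes on the array 10 were called higher and 0 lower, with a median of 1.70 (0.63 with normexp). Il1b, the secreted cytokine, rose from between -1.8 and -0.5 to between 4.87 and 6.04, a difference of 6.74 ± 0.41. Il1a, an alarmin held in cells until they break, was on no sham array well above background and was at least 14.4-fold higher. The epithelial members Il1f9 (IL-36γ) and Il1f6 (IL-36α) were likewise at least 18.8-fold and at least 5.28-fold higher. The inhibitors moved with them, since Il1rn, the receptor antagonist, rose by 5.63 ± 0.58 and Il1r2, the decoy receptor, by 5 ± 0.37. Il33, a nuclear alarmin of stromal and endothelial cells, rose by 3.23 ± 0.18, and its receptor gene Il1rl1 by 2.16 ± 0.48, a call that was lost without sham replicate 1 (1.85).

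The IL-6 family also rose, with 12 of 24 genes called higher, 0 lower and a median of 1.27. Il6 had sham levels of -4.35, -5 and -4.62 and 3 h levels of 2.89, 3.12 and 2.84, so that the 3 h arrays lay close together and far above the sham arrays. The difference was 7.61 ± 0.45. Other ligands of receptors that contain gp130 rose too, with Osm, made by neutrophils and macrophages, at 6.03 ± 0.43, Il11 at 4.64 ± 0.37 and Lif at 1.77 ± 0.37. Lif was well above background on 1 sham array and on all 3 h arrays. On the receptor side, Osmr, the oncostatin M receptor, rose by 2.08 ± 0.17, while Il6st, which encodes gp130 itself, differed by 0.42 ± 0.16 with an adjusted p of 0.0893. Socs3, the feedback inhibitor of this pathway, rose by 4.39 ± 0.36 and the transcription factor gene Stat3 by 1.28 ± 0.11.

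Of 25 TNF superfamily genes 7 were called higher and 0 lower, with a median of 0.83 (0.5 with normexp). Tnf rose from -2.53 to -2.18 on the sham arrays to -0.09 to 0.51 at 3 h, a difference of 2.65 ± 0.47. Receptor genes rose too, with Tnfrsf12a, the receptor for TWEAK, at 3.8 ± 0.19, Tnfrsf1b, the inducible TNF receptor, at 2.62 ± 0.33 and Tnfrsf11b, the soluble decoy osteoprotegerin, at 2.08 ± 0.13. For Tnfrsf1b, 1 of the 2 probes was called.

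Among 29 other cytokines and growth factors of blood cells 12 were called higher and 0 lower, with a median of 0.91 (0.29 with normexp). Il22, a lymphocyte cytokine that acts on epithelium, had sham levels of -6.62, -5.06 and -2.77 and 3 h levels of 1.1, 3.01 and 3.26. The sham arrays were widely spread and only 1 was well above background. The groups did not overlap, and the difference was 7.27 ± 1.06 with an adjusted p of 0.00146 from limma. Csf3, the neutrophil growth factor G-CSF, was above background on no sham array and was at least 32.6-fold higher. The cytokine genes Il17a, Il17f and Il23a were dimmer than Il22, with bounds of at least 3.08-fold, 4.14-fold and 3.47-fold. The regulatory cytokine Il10 was at least 3.51-fold higher and Tslp, an epithelial cytokine, rose by 2.53 ± 0.53. With normexp correction 5 of these 29 genes were called higher, and Il17a, Il17f, Il23a and Il10 were not among them.

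**Figure D2:**
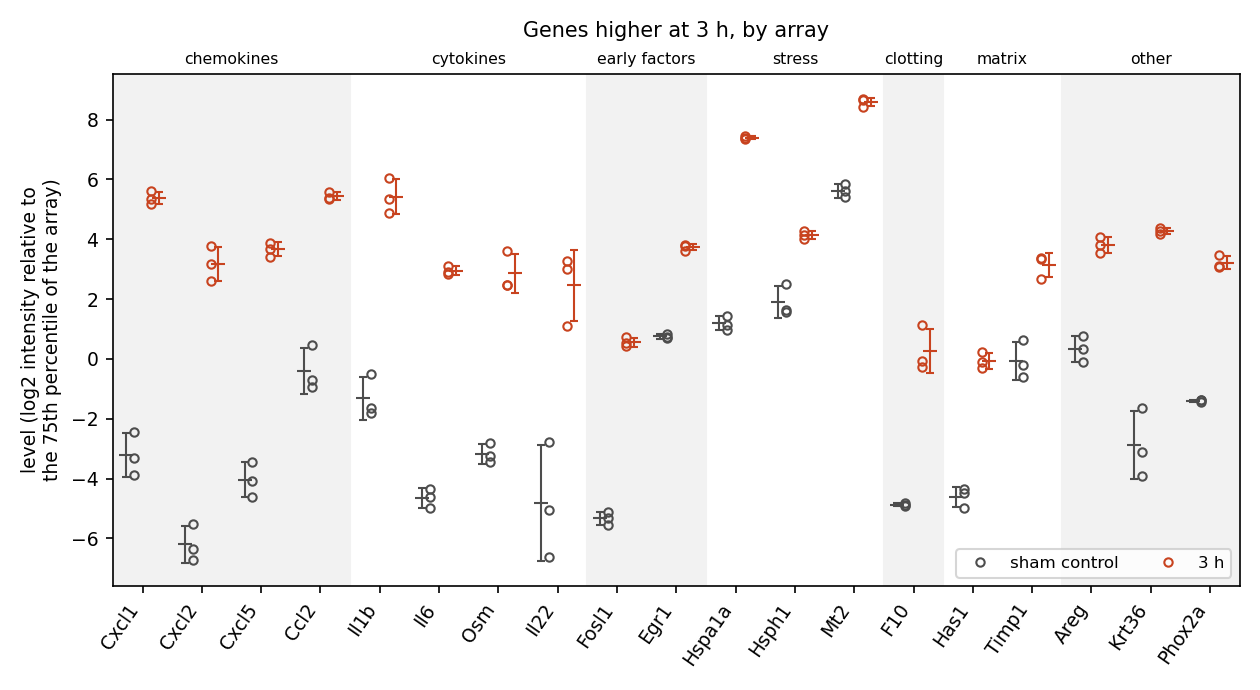
Levels of 19 genes called higher, in log2 intensity relative to the 75th percentile of each array, with 1 open circle per array (grey sham control, orange 3 h) and bars for the mean ± SD of 3 arrays. In each gene the 3 h circles lie above all sham circles, and Il22 shows the widest spread, from -6.62 to -2.77 in the sham group.

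Immediate early transcription factors, which are switched on from existing signalling proteins without new protein synthesis, were high at 3 h. Of 28 such genes 18 were called higher and 0 lower, 64.3% against 3.24% of all genes, with a median of 1.17. The largest rise was that of the AP-1 subunit Fosl1, which was on no sham array above background, reached 0.43 to 0.72 at 3 h and was at least 47.8-fold higher. Its better known relatives differed less, with Fos at 1.17 ± 0.21 and Junb at 1.72 ± 0.18 from sham levels that were already between 3.1 and 5. Without sham replicate 3 the difference of Fos was 0.97 and it was not called. Nr4a1 rose by 3.3 ± 0.3, Maff by 3 ± 0.2, Egr1 by 2.98 ± 0.27, Ier3 by 2.74 ± 0.26, the stress factor Atf3 by 2.47 ± 0.26 and Myc by 1.89 ± 0.16. Egr1 varied little between replicates, with sham levels of 0.7 to 0.84 and 3 h levels of 3.62 to 3.82.

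Genes that end NF-kB and MAP kinase signals rose together with the signals' targets. In the NF-kB list 14 of 21 subunits and feedback inhibitors were called higher and 0 lower, 66.7% of them, with a median of 1.20. Nfkbia, the inhibitor that holds NF-kB in the cytoplasm, had sham levels of 4.3 to 4.38 and 3 h levels of 6.36 to 6.66, a rise of 2.17 ± 0.32. The ubiquitin-editing enzyme Tnfaip3 (A20) rose by 2.71 ± 0.38 and its binding partner Tnip3 by 4.63 ± 0.35. The ribonuclease Zc3h12a, which degrades cytokine mRNAs, rose by 2.38 ± 0.23, the nuclear cofactors Bcl3 and Nfkbiz by 2.79 ± 0.17 and 2.31 ± 0.3. Of 19 MAP kinase phosphatases and Sprouty-type inhibitors 9 were called higher and 0 lower, with a median of 0.92. Dusp1, a phosphatase of p38 and JNK, led them with levels of 1.31 to 1.67 in sham tissue and of 5.01 to 5.59 at 3 h, a rise of 3.79 ± 0.21.

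Heat shock genes rose too, the inducible HSP70 genes most. Of 24 chaperones and cofactors 11 were called higher and 0 lower, with a median of 0.69. The count was 7 without sham replicate 2 and 6 under quantile normalization or when scaled to probes above background. Hspa1a, the inducible HSP70, had sham levels of 0.98, 1.14 and 1.45 and 3 h levels of 7.35, 7.46 and 7.37. The 3 h arrays thus differed little from each other and lay 6.2 ± 0.35 above the sham mean, a 73.6-fold rise (adjusted p 9.94e-06, limma). Hspa1b, its near-identical neighbour, rose by 4.91 ± 0.39, and these values cannot be taken as independent, since transcripts so alike may bind each other's probes. Hsph1 (HSP110) rose by 2.23 ± 0.27, the HSP40 gene Dnajb1 by 1.68 ± 0.18, the cytosolic HSP90 gene Hsp90aa1 by 1.59 ± 0.21, Hspb1 (HSP27) by 1.24 ± 0.14 and the cochaperone Bag3 by 1.11 ± 0.14. The constitutive Hspa8 rose by 1.01 ± 0.15 from levels of 5.79 to 6.35, at the edge of the fold threshold, and was not called without sham replicate 1 (0.89), sham replicate 2 (0.98) or 3 h replicate 3 (0.98). Sham replicate 3 was the highest sham array for Hspa1a, Hspa1b, Hsph1, Dnajb1, Hsp90aa1, Bag3 and Hspa8. Under quantile normalization the differences of Hspb1, Bag3 and Hspa8 were 0.95, 0.87 and 0.74 and did not reach the fold threshold.

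Promoters of this group are shown because Hspa1a and Hspa1b share theirs almost completely and differ in 1 of the 150 bases. Capitals mark pairs of the heat shock element, GAANNTTC or TTCNNGAA, which can overlap in a longer element. The windows are chr17:34972157-34972306 (-) for Hspa1a, chr17:34959239-34959388 (-) for Hspa1b and chr5:149636337-149636486 (-) for Hsph1, from RefSeq on GRCm38.p6.
Hspa1a: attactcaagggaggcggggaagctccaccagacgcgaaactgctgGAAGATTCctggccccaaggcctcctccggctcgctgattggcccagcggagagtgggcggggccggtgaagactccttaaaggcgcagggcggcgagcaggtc
Hspa1b: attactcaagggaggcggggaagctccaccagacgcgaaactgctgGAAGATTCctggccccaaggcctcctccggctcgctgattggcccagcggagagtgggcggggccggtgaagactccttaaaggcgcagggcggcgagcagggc
Hsph1: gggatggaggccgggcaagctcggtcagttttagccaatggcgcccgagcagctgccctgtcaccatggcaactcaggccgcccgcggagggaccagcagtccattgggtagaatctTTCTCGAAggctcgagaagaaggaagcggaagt

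Either pair was found on both strands within 250 bases of the start in 12.8% of 32851 promoters and, counted by gene, in 14.5% of 27025 genes. In the heat shock list 9 of 19 genes with a promoter in the table held one, and 5 of these 9 were called higher.

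Other stress responses were narrower. Metallothioneins, which bind zinc and copper, rose with other members of an oxidative stress list. Of its 23 genes 6 were called higher and 0 lower, with a median of 0.30. Mt2 rose from 5.4 to 5.84 to 8.42 to 8.68, by 2.98 ± 0.16, and Mt1 by 1.87 ± 0.15 from a sham level of 6.48 to 6.79. Heme oxygenase 1, Hmox1, rose by 2.91 ± 0.23. The cystine transporter gene Slc7a11 rose by 3.22 ± 0.43 on its brightest probe, the only one of 4 probes to be called. In the unfolded protein list 5 of 22 genes were called higher and 0 lower with a median of 0.60, among them Chac1 at 2.25 ± 0.57, Atf4 at 1.19 ± 0.12 and the endoplasmic reticulum chaperone Hspa5 at 1.05 ± 0.28. Hspa5 levels of 4.88 and 5.22 in sham replicates 1 and 2 were below that of 6.23 in sham replicate 3, which was close to the lowest 3 h level of 6.28. The call of Hspa5 was lost without sham replicate 1 (0.76), sham replicate 2 (0.93), 3 h replicate 1 (0.98) or 3 h replicate 3 (1.01), and that of Chac1 without sham replicate 1 (2.13), sham replicate 2 (2.11) or 3 h replicate 3 (1.95). The count of 5 called higher was 2 without sham replicate 1, sham replicate 2 or 3 h replicate 3, and 3 without 3 h replicate 1, under quantile normalization or when scaled to probes above background.

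In the list of glucocorticoid-induced genes 12 of 22 were called higher and 1 lower, with a median of 1.1. The list also holds the glucocorticoid receptor gene and enzymes that make or convert steroids, which are not induced targets. Its induced members are also known to answer other signals, and the list shares Dusp1, Mt1, Mt2 and Lcn2 with groups above and below. Fkbp5, a feedback regulator of the glucocorticoid receptor, rose by 1.42 ± 0.19, from 3.21 to 3.56 to 4.64 to 4.96, and Tat, the tyrosine aminotransferase gene, by 2.25 ± 0.18. Pdk4, a brake on glucose oxidation, was called lower at -1.04 ± 0.22 and lost the call without sham replicate 1 (-0.92) or 3 h replicate 3 (-0.84). Of 22 circadian clock genes 3 were called higher and 4 lower, with a median of -0.38. With normexp correction 1 was called higher and 2 lower, with a median of -0.24, without sham replicate 2 there were 2 called lower, and scaling to probes above background or the mean over a gene's probes left 1 called higher. Nfil3, a repressor of evening genes, rose by 2.93 ± 0.33, while Dbp, Hlf and Per3, which are driven by the clock, fell by 1.66 ± 0.35, 1.81 ± 0.28 and 1.57 ± 0.36, the last not being called without sham replicate 1 (-1.32) or sham replicate 2 (-1.38). The hours between the collection times of the groups belong to the same contrast. Of 30 hypoxia and glycolysis genes 7 were called higher and 1 lower, with a median of 0.23. The glycolytic regulator Pfkfb3 rose by 2.54 ± 0.42, hexokinase 2 (Hk2) by 1.87 ± 0.27 and the vasodilator gene Adm by 2.03 ± 0.18, whereas Ankrd37, a target of hypoxia-inducible factor, fell by 1.63 ± 0.32. Hif1a rose by 2.17 ± 0.19 on 1 of its 3 probes.

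**Figure D3:**
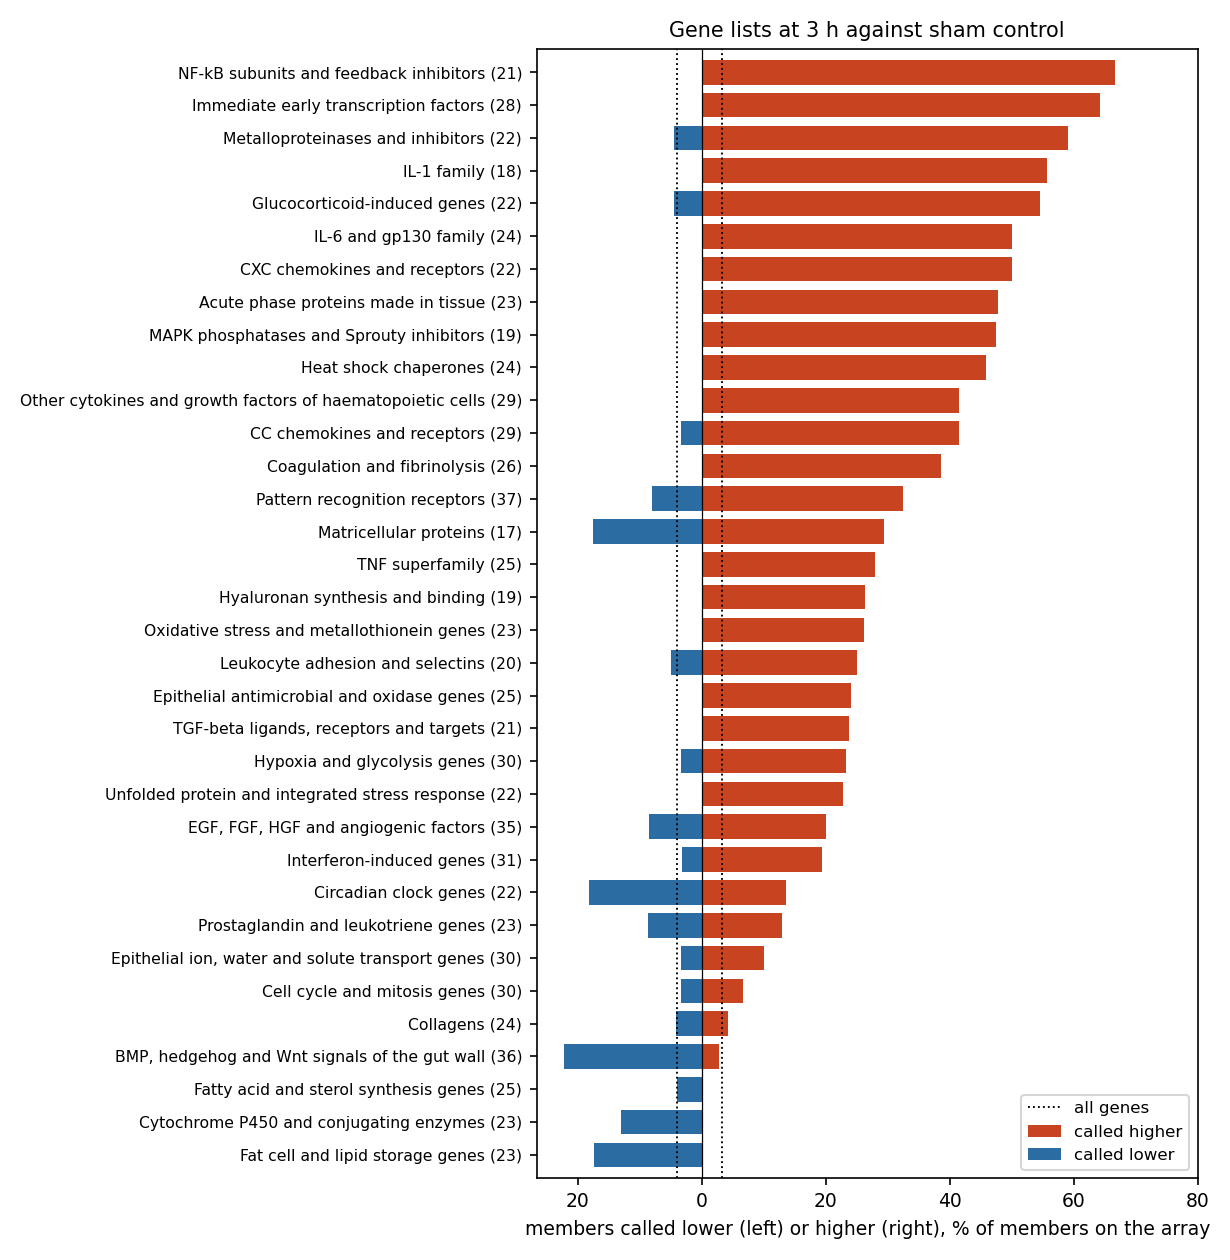
For 34 lists of response genes, bars give the percentage of members on the array (number in brackets) called higher (orange, right) or lower (blue, left) at 3 h, and dotted lines give these shares over all genes. The NF-kB list stands at 66.7% called higher, and the BMP, hedgehog and Wnt list has the largest share called lower, 22.2%.

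Of 26 genes of coagulation and fibrinolysis 10 were called higher and 0 lower, with a median of 0.56. With normexp correction 6 were called higher, with a median of 0.26, and 6 likewise when scaled to probes above background. Factor X (F10), the protease that turns prothrombin into thrombin, had sham levels of -4.89, -4.82 and -4.91 and 3 h levels of -0.26, -0.06 and 1.12, with no overlap, and was above background on 2 of the 3 sham arrays. It rose by 5.14 ± 0.51. Tissue factor (F3), which starts coagulation, rose by 2.16 ± 0.24. Serpinb2, an inhibitor of plasminogen activators, was above background on no sham array and was at least 116-fold higher. Plaur, the urokinase receptor, rose by 4.14 ± 0.38. In the list of TGF-β ligands, receptors and targets 5 of 21 genes were called higher and 0 lower with a median of 0.31. Among them were the activin subunits Inhbb at 3.14 ± 0.31 and Inhba at 1.75 ± 0.29 and the stress cytokine Gdf15 at 2.01 ± 0.29. Tgfb1 itself had overlapping levels of -1.47 to -0.94 and -1.22 to -0.58, a difference of 0.28 ± 0.18 with an adjusted p of 0.292. A second, dimmer probe of Tgfb1 did not overlap, at -3.63 to -3.57 and -3.04 to -2.71, and differed by 0.74 ± 0.11 with an adjusted p of 0.0015, under the fold threshold.

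Proteases of the extracellular matrix rose in many cases, and collagens were called about as often as all genes. Of 22 metalloproteinases and inhibitors 13 were called higher and 1 lower, with a median of 1.70 (0.85 with normexp). Of 24 collagens and collagen-modifying enzymes 1 was called higher and 1 lower, with a median of -0.46 (-0.21 with normexp). That is 4.17% in each direction, against 3.24% called higher and 4.1% called lower over all genes. The inhibitor Timp1 rose from between -0.61 and 0.64 to between 2.66 and 3.38, by 3.18 ± 0.35. The aggrecan- and versican-cutting proteases Adamts4, Adamts1 and Adamts9 rose by 5.09 ± 0.37, 2.86 ± 0.32 and 2.32 ± 0.28. Mmp8, the neutrophil collagenase, rose by 6.99 ± 0.72, Mmp10 by 3.09 ± 0.45 and Mmp13 by 2.51 ± 0.27. Against them Mmp11, a stromal protease, was called lower at -2.4 ± 0.17, from between -0.99 and -0.56 to between -3.34 and -2.96. Among collagens Col5a2 was called lower at -1.49 ± 0.33.

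Hyaluronan and its binding proteins were represented by 19 genes, of which 5 were called higher and 0 lower, with a median of -0.03. The synthase Has1 rose by 4.54 ± 0.63 and Has2 by 1.52 ± 0.34, the latter losing its call without sham replicate 2 (1.37). Tnfaip6 (TSG-6), which links hyaluronan to other proteins, had sham levels of -2.99 to -2.95 and 3 h levels of 0.69 to 1.18, a rise of 3.91 ± 0.26. Ptx3, a pentraxin of the same matrix, was at least 60.9-fold higher, and the hyaluronan receptor gene Cd44 rose by 1.62 ± 0.13. Of 17 matricellular proteins 5 were called higher and 3 lower, with a median of 0.03. Thbs1 (thrombospondin 1) rose by 3.77 ± 0.37, the YAP and serum response factor targets Cyr61 and Ctgf by 3 ± 0.31 and 2.23 ± 0.25, and tenascin C (Tnc) by 1.21 ± 0.12. Wisp2, of the same CCN family as Cyr61 and Ctgf, was called lower and was at least 2.05-fold lower, but lost the call without sham replicate 1 (-2.44), 2 (-2.12) or 3 (-2.44) or 3 h replicate 1 (-1.83) or 3 (-2.31). With normexp correction 0 of the 17 were called lower by limma, and likewise 0 without 3 h replicate 1, sham replicate 1 or sham replicate 2, and 1 without 3 h replicate 3.

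Acute phase proteins made in tissue were called higher in 11 of 23 cases and lower in 0, with a median of 0.98 (0.64 with normexp). The iron-binding lipocalin Lcn2 rose by 6.02 ± 0.6, haptoglobin (Hp) by 4.35 ± 0.43 and serum amyloid A3 (Saa3) by 4.33 ± 0.47. For Lcn2 and Saa3 the 3 h replicate 3 was the highest, with Saa3 at 5.55, 5.93 and 7.49. Hamp, which encodes the iron hormone hepcidin, was above background on no sham array and at least 5.05-fold higher. Among pattern recognition receptors 12 of 37 were called higher and 3 lower, with a median of 0.35. The C-type lectins Clec4e (Mincle, at least 215-fold) and Clec4d (7.72 ± 0.38) and the formyl peptide receptors Fpr1 (5.98 ± 0.53) and Fpr2 (4.55 ± 0.48) led the rises, all 4 being genes that neutrophils and monocytes carry. The 3 called lower were Tlr12 at -1.95 ± 0.21, the flagellin receptor Tlr5 at -1.67 ± 0.25 and Nlrp6, an epithelial sensor, at -1.16 ± 0.22, which without 3 h replicate 3 stood at -1 and was not called.

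Of 20 leukocyte adhesion genes 5 were called higher and 1 lower, with a median of 0.26. The selectin gene Selp of endothelium and platelets rose by 4.15 ± 0.26 and Icam1, a ligand of leukocyte integrins, by 2.26 ± 0.31. Sele, the endothelial selectin, was above background on no sham array and was at least 3.5-fold higher. With normexp correction 3 of the 20 were called higher. Among 23 prostaglandin and leukotriene genes 3 were called higher and 2 lower, with a median of -0.06, and Ptgs2 (cyclooxygenase 2) rose by 3.77 ± 0.35. With the mean over a gene's probes 0 of the 23 were called lower by limma.

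In the list of EGF, FGF, HGF and angiogenic factors 7 of 35 genes were called higher and 3 lower, with a median of -0.16, and the count called lower was 1 with normexp correction or without sham replicate 1. Of the 7 called higher, 5 encode ligands of the EGF receptor, which drive epithelial repair, while the ligands Tgfa and Egf were not called, at 0.41 ± 0.2 and -0.22 ± 0.18. These ligands were grouped after their values were seen. Areg (amphiregulin) rose by 3.49 ± 0.36, from -0.12 to 0.78 to 3.55 to 4.09, Btc (betacellulin) by 3.39 ± 0.24, Ereg (epiregulin) by 2.82 ± 0.35, and Hbegf by 1.83 ± 0.12. Epgn, the fifth of them, was above background on 1 of the 6 arrays, a 3 h array, and stood at 0.17 with normexp correction. The oxidase Duox2 and its maturation factor Duoxa2 rose by 2.59 ± 0.22 and 2.63 ± 0.3, and Nos2, the inducible nitric oxide synthase, by 2.39 ± 0.51. Of 30 ion and solute transport genes 3 were called higher and 1 lower, with a median of 0.03. The sodium channel subunit Scnn1g rose by 3.13 ± 0.43 and the potassium channel gene Kcnn4 by 1.46 ± 0.15, while the phosphate transporter gene Slc20a1 fell by 1.29 ± 0.2. In the crypt list of 18 genes 2 were called higher (Cd44 and Sox9) and 2 lower (Axin2 and Smoc2). The brightest probe of Lgr5, the stem cell marker, differed by -0.96 ± 0.23, with an adjusted p of 0.0151 but under the fold threshold. Of the 2 Lgr5 probes the other was called lower, and the mean over both was called at -1.43. Smoc2 was not called without sham replicate 2 (-0.99) and Sox9 without sham replicate 3 (0.96), and 4 of the 18 genes were called lower without 3 h replicate 1, Lgr5 (-1.11) among them, or when scaled to probes above background.

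Krt36 and Phox2a stood out from the groups fixed by function. Krt36, a hair keratin, had sham levels of -3.9, -3.1 and -1.65 and 3 h levels of 4.26, 4.16 and 4.37, a rise of 7.15 ± 0.48. Phox2a, a transcription factor of autonomic neurons, had sham levels close together, at -1.43 to -1.38, and 3 h levels of 3.08 to 3.46, a rise of 4.61 ± 0.17 with the adjusted p of 1.08e-06. It has 1 probe on the array.

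Falls were smaller, and some of them were in signals that pattern the gut wall. Of 36 BMP, hedgehog and Wnt signals 1 was called higher and 8 lower, 22.2% against 4.1% of all genes, with a median of -0.52 (-0.21 with normexp). Rspo1, a Wnt amplifier, had sham levels of -0.78, -0.8 and -0.97 and 3 h levels of -4.23, -3.29 and -3.88, without overlap and with a difference of -2.95 ± 0.39. Rspo2, above background on 2 sham arrays and on 0 of the 3 h arrays, was called lower without a bound on its fold. The Wnt antagonist gene Dkk2 fell by 1.46 ± 0.35 and Wnt5a by 1.26 ± 0.29. Rspo2 lost its call without sham replicate 1 (-1.63) or 2 (-1.6) or 3 h replicate 1 (-1.67) or 3 (-1.76), and Dkk2 without sham replicate 1 (-1.31) or 2 (-1.44) or 3 h replicate 1 (-1.3). The Wnt target Axin2 fell by 1.21 ± 0.2 on 1 of its 2 probes. In the hedgehog branch, the receptor and target Ptch1 fell by 1.94 ± 0.24 and the factor Gli2, above background on no 3 h array, was at least 1.46-fold lower. The hedgehog genes Gli1 and Hhip and the BMP targets Id1, Id2 and Id3, also in this list, were not called, while Id4, a BMP target too, fell by 1.97 ± 0.22. Grem1, a BMP antagonist of fibroblasts, went the other way at 1.04 ± 0.28 and lost its call without sham replicate 1 (1.02), sham replicate 2 (0.92), 3 h replicate 2 (0.9) or 3 h replicate 3 (0.99). With normexp correction 2 of the 36 genes were called lower, Rspo1 and Id4.

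Over all genes, the largest falls among probes above background on all 6 arrays were those of Adrb3 and Cyp2e1, given below, 9130208D14Rik at -3.31 ± 0.3, Gas1, Lrrtm1 at -3.14 ± 0.39, Thrsp, Rspo1 and Apol10a at -2.93 ± 0.32. Fzd2, a Wnt receptor, fell by 2.89 ± 0.26, from 0.05 to 0.19 to -2.9 to -2.59. Gas1, which modulates hedgehog signals, fell by 3.19 ± 0.37, the factor gene Zfp521 by 2.73 ± 0.24 and Cd248 (endosialin), a marker of pericytes and fibroblasts, by 2.62 ± 0.42. The muscarinic receptor Chrm2 of gut smooth muscle fell by 2.27 ± 0.37, the serotonin receptor Htr2b by 2.26 ± 0.4 and Gucy1a3, a subunit of the nitric oxide receptor, by 2.29 ± 0.2. Of 20 smooth muscle markers 4 were called lower and 0 higher, with a median of -0.76. Lmod1 and Smtn, of the contractile apparatus, fell by 1.71 ± 0.35 and 1.14 ± 0.12, and the count called lower was 2 without sham replicate 1 or 3 h replicate 1, 7 without sham replicate 3 or 3 h replicate 3 or when scaled to probes above background, and 9 under quantile normalization. Of 16 fibroblast markers 0 were called by limma in either direction, 10 lying lower at an unadjusted p under 0.05, with a median of -0.61. With the mean over a gene's probes 2 of the 16 were called lower. The tight junction gene Cldn5 of endothelium fell by 1.68 ± 0.19. Of the cell cycle inhibitors, Cdkn2b fell by 1.5 ± 0.13, and Cdkn1a was called higher at 1.14 ± 0.17 but not under quantile normalization (0.9) or with the mean of its probes (0.74).

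**Figure D4:**
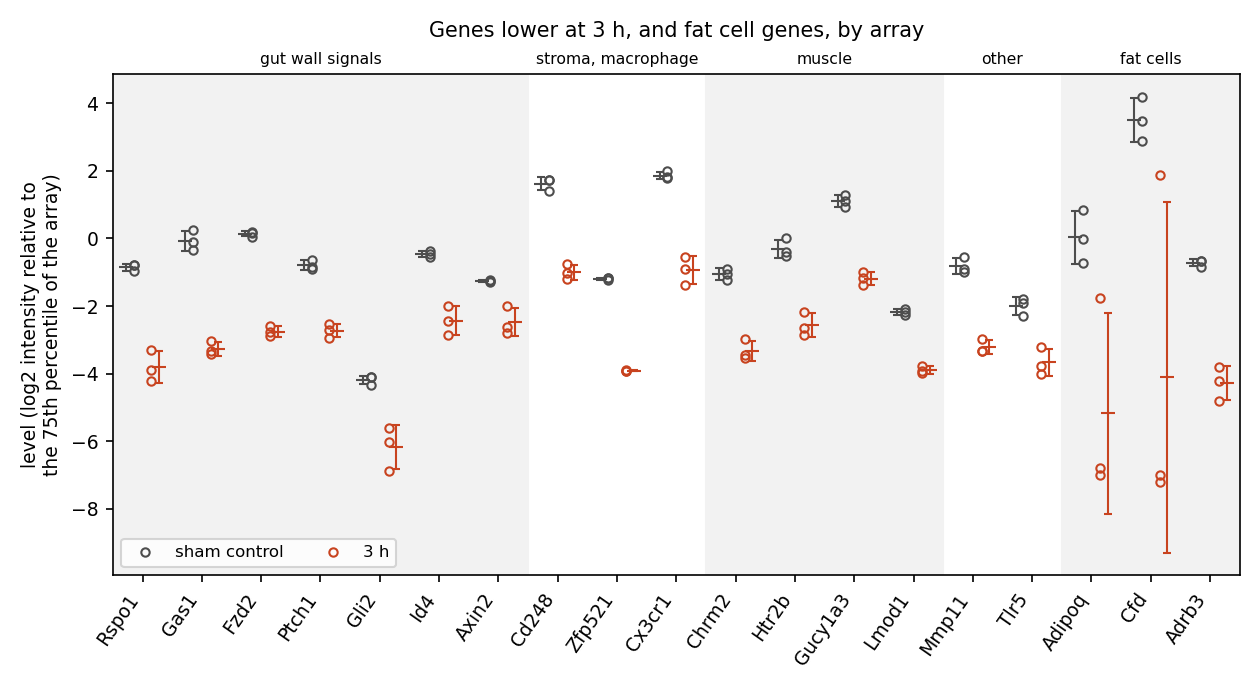
Levels of 17 genes called lower, among them Adrb3, and of the fat cell genes Adipoq and Cfd, in log2 intensity relative to the 75th percentile of each array, with 1 open circle per array (grey sham control, orange 3 h) and bars for the mean ± SD of 3 arrays. The gut wall and muscle genes separate the groups with small spread, whereas Cfd spans -7.2 to 1.88 among the 3 h arrays.

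The make-up of the tissue pieces differed between arrays as well as between groups, and its part in the differences above was not tested. Relative to sham means, the median of the smooth muscle list was -0.9, -0.69 and -0.68 on the 3 h arrays, that of the fibroblast list -0.57, -0.61 and -0.63, and that of the list of enteric neurons, glia and pacemaker cells -0.85, -0.6 and -0.34. The surface epithelium list stood at 0.27, 0.24 and 0.3 and the goblet cell list at 0.36, 0.31 and 0.34. The falls of gut wall and muscle genes thus went with lower levels of all 3 muscle and stroma lists and with slightly higher levels of the epithelial ones. The summed level of the 20 smooth muscle markers was 876 to 987 on the sham arrays and 514 to 614 on the 3 h arrays, and that of the 16 fibroblast markers 191 to 211 and 130 to 155, in units of the 75th percentile.

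Neutrophil markers rose with the chemokines that attract these cells. Of 22 markers 14 were called higher and 0 lower, with a median of 3.60, and their summed level was 84.8 to 96.1 on the sham arrays and 392 to 670 on the 3 h arrays. S100a8 had sham levels of -5.6, -4.85 and -3.13 and 3 h levels of 5.72, 6.68 and 6.4. Its partner in calprotectin, S100a9, rose by 10.06 ± 0.45 and S100a8 by 10.79 ± 0.6. The protease inhibitors Stfa2l1 and Stfa1 were above background on no sham array and were at least 86.8-fold and at least 49-fold higher. Ly6g, the surface marker used to count neutrophils, rose by 3.61 ± 0.55 from widely spread sham levels of -0.26, 1.11 and 2.52. Of 20 monocyte and macrophage markers 2 were called higher and 2 lower, with a median of 0.26. Their summed level was 354 to 487 on the sham arrays and 725 to 900 on the 3 h arrays, without overlap. Such a sum is carried by the brightest markers, and 16 of the 20 markers were not called. Cx3cr1, given above, was among the 2 called lower. The 2 called higher were Ly6c2 at 2.29 ± 0.35 and Ly6c1 at 2.28 ± 0.35, which are so alike that their values cannot be taken as independent.

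Red blood cell genes were called higher in 6 of 11 cases and lower in 1, with a median of 3.27 (1.32 with normexp). The list holds several α- and β-globin genes, which are so alike that their values cannot be taken as independent. Hba-a1, an α-globin gene, had sham levels of 2.86, 4 and 3.35 and 3 h levels of 8.04, 6.21 and 5.81, and the summed level of the 11 genes was 17 to 36.6 in sham tissue and 129 to 605 at 3 h. Without 3 h replicate 1, 5 of the 11 were called higher. Epor, the erythropoietin receptor gene, which other cells express too, fell by 1.85 ± 0.19.

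B cell and fat genes set single arrays apart. Of 17 B and plasma cell markers 0 were called by limma in either direction, 2 lying higher and 4 lower at an unadjusted p under 0.05, but their median relative to the sham mean was -2.82 on 3 h replicate 1, against -0.8 and 0.21 on the other 3 h arrays and -0.43 to 0.25 on the sham arrays. Their summed level was 155 on that array, 173 and 204 on the other 3 h arrays and 133 to 165 on the sham arrays, so that it was not low where the median was. The sum lay mostly in Jchain and Xbp1, at mean 3 h levels of 5.89 and 6.34, which plasma cells express most and other cells in part. Without 3 h replicate 3, 3 of the 17 were called lower. Ms4a1, which encodes the B cell antigen CD20, was at 2.59, 1.72 and 2.65 on the sham arrays and at -2.37, 1.15 and 2.62 on the 3 h arrays. Adipoq (adiponectin), at -0.72 to 0.83 in sham tissue, was at -6.78, -1.75 and -6.99 at 3 h, and above background on replicate 2 alone. Cfd (adipsin), at 2.88 to 4.18 in sham tissue, was at -7.2, 1.88 and -7, and neither was called (adjusted p 0.2 and 0.184).

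Of 23 fat cell and lipid storage genes 0 were called higher and 4 lower, with a median of -0.87, and 2 of the 23 were called lower without sham replicate 1, sham replicate 2, 3 h replicate 1 or 3 h replicate 3. The β3-adrenergic receptor gene Adrb3 fell by 3.56 ± 0.52, Thrsp by 3 ± 0.77, the glucose transporter gene Slc2a4 by 1.71 ± 0.2 and Lipe, the hormone-sensitive lipase gene, by 1.23 ± 0.33. The P450 gene Cyp2e1, also high in fat, fell by 3.46 ± 0.99 with 3 h levels of -3.38, -1.22 and -3.35. Thrsp likewise stood highest on 3 h replicate 2, at -3.17, -0.88 and -3.2. Slc2a4, at 0.8, 1.12 and 0.88, and Adrb3, at -4.81, -3.81 and -4.22, separated from the sham arrays on all 3 h arrays, replicate 2 included. Thrsp and Cyp2e1 lost their calls without sham replicate 1 (-3.02 and -3.44), sham replicate 2 (-2.48 and -3.15), 3 h replicate 1 (-2.62 and -3.09) or 3 h replicate 3 (-2.6 and -3.11), and Cyp2e1 also without sham replicate 3 (-3.79). Lipe lost its call without any 1 array other than sham replicate 3, its differences then being -1.08 to -1.29. Cyp26b1, which degrades retinoic acid, fell by 2.27 ± 0.45.

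Mesothelial markers moved in both directions, with 3 of 20 called higher, 7 lower and a median of -0.48 (-0.16 with normexp). Their summed level was higher at 3 h, at 711 to 856 on the sham arrays and 1110 to 1220 on the 3 h arrays, and most of it lay in the keratins Krt8, Krt18 and Krt19, which epithelium shares, at mean sham levels of 8.6, 7.03 and 7.93. Upk3b and Lrrn4, both largely restricted to mesothelium, were well above background on all sham arrays and on no 3 h array, and were at least 4.05-fold and at least 3.61-fold lower. Gpm6a, Bnc2 and Igfbp6 fell by 1.54 ± 0.31, 1.56 ± 0.3 and 1.59 ± 0.35, beside Rspo1 and Gas1 given above. Msln (mesothelin), which marks the same cells, was at 1.09, 0.54 and 1.13 on the sham arrays and at -5.18, 0.59 and 1.16 on the 3 h arrays, so that 3 h replicates 2 and 3 lay at about the sham level. Pdpn (podoplanin), which lymphatic vessels and activated stroma share, rose by 1.73 ± 0.13 and the epithelial keratin gene Krt18 by 1.17 ± 0.2. Upk3b and Lrrn4 were thus low on all 3 h arrays and Msln on replicate 1 alone. With normexp correction 3 of the 20 markers were called lower, and Upk3b and Lrrn4 were not.

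**Figure D5:**
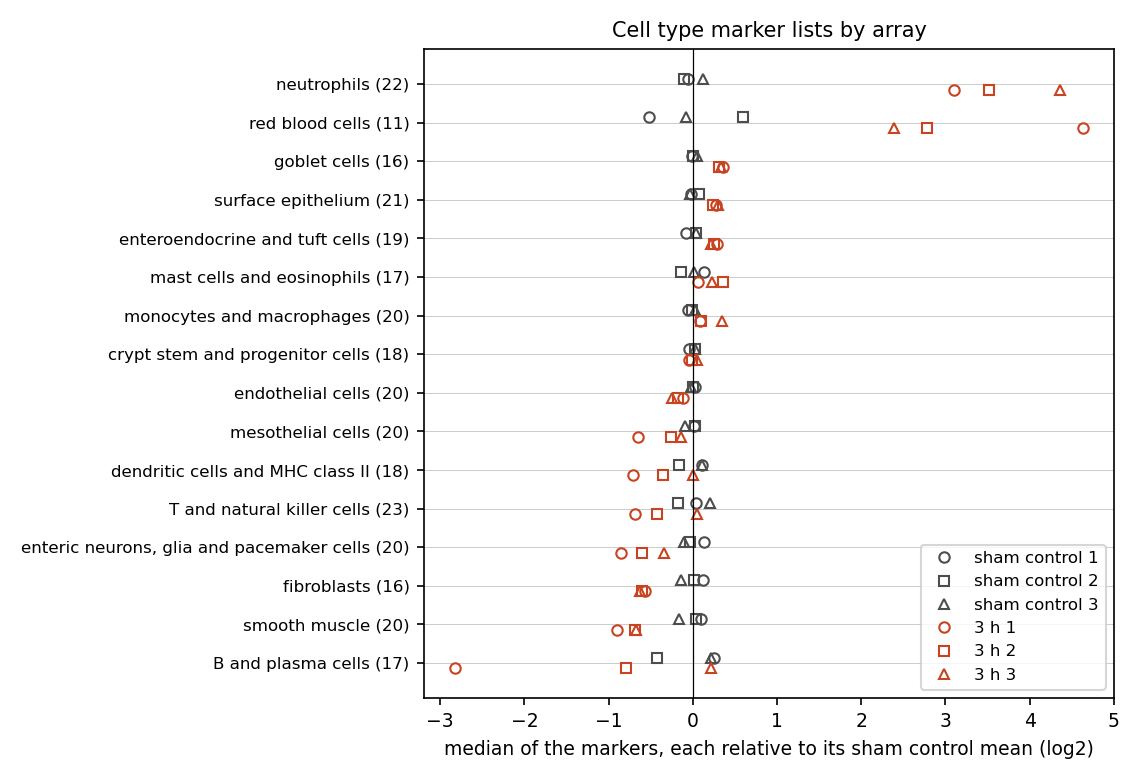
For 16 marker lists (number of genes in brackets), each point is the median over the markers on 1 array, each marker taken relative to its sham control mean (log2). Neutrophil and red cell lists lie to the right on all 3 h arrays, smooth muscle and fibroblast lists to the left, and the B and plasma cell list is at -2.82 on 3 h replicate 1.

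The differences from sham at the later times share the sham arrays with those at 3 h. Of the 12 h arrays 2 lay on the same slide as the sham and 3 h arrays, and 1 lay with the 72 h arrays on another. Between 12 h and 3 h, 701 genes were called higher at 12 h (1.89% of those tested) and 582 lower (1.57%). Hspa1a stood 6.2 above sham at 3 h, 3.71 at 12 h and 0.65 at 72 h, and Krt36 at 7.15, 3.42 and 1.16. Phox2a followed the same course, at 4.61, 1.99 and -0.02, and Fkbp5 was back at the sham level by 12 h, at 1.42, -0.03 and -0.63. Il6 by contrast stood at 7.61, 6.75 and 7.2. Upk3b, at -4.15, -4.21 and 0.02, and Fzd2, at -2.89, -1.76 and 0.72, were both back at or above the sham level at 72 h.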

How the data were processed

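Cecal RNA was extracted with RNeasy Plus Mini kits and hybridised to 1-colour Agilent arrays. The authors deposited each array's Feature Extraction output, whose intensity values (gProcessedSignal) were background-subtracted and detrended within the array and not normalized between arrays, and, per the file headers, the probe coordinates are on mm9. A deposited table of log2 values, normalized by the authors to the 75th percentile in GeneSpring with every row's median set to 0, served as an alternative. No other column of values was left unused (0).

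Outlier spots and control spots were left out, spots of a probe were averaged, log2 intensities had the array's 75th percentile subtracted, and the brightest probe stood for a gene. limma 3.58.1 in R 4.3.3 (lmFit, eBayes) was fitted to all 12 arrays with 4 group means and 8 residual degrees of freedom, with Benjamini-Hochberg adjustment over 56605 probes, and figures were drawn with matplotlib 3.10.9. The fit was tested on simulated data. A gene on all 3 arrays of a group and on 0 of the other, by the scanner software's call above background, was given as a bound. Such a bound holds for this processing, and differences under other settings, normexp correction among them, can be smaller. The number of arrays, 3 per group, limits the precision, and p-values cover the spread between these samples, which the study calls biological triplicates.

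Genes were named from 50 lists (in each, up to 6 called members per direction with the largest differences and members against their list's direction), from the 15 largest rises and falls over all genes, from the 10 largest bounds per direction, and from genes the study measured by other means. Some genes outside this rule (further list members) were picked after their values were seen. Some measured genes are not reported here. The members and lists were chosen with earlier results of these data known. Promoters came from RefSeq on GRCm38.p6, matched by symbol, and no genome was used. Samples were grouped by their treatment labels. Replicate numbers, shared by the groups, did not pair the samples, as correlations of same-numbered deviations were -0.16, -0.04 and -0.03. Alternatives were other normalizations, background correction, filters, probe summaries, thresholds and sets of arrays.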

Additional observations from a re-analysis of the deposited data

Results flagged for a closer look

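Of the 194 genes named or plotted here, 43 differed between 12 h and 3 h after cauterization by more than 2-fold with an adjusted p below 0.05 in the same limma fit, which is a test of the difference between the times itself. The values are log2 differences, 12 h minus 3 h, and 22 were higher and 21 lower at 12 h, when over all genes 1.89% and 1.57% were. Most of the 194 genes were named for large differences at 3 h, and this contrast uses the same 3 h arrays. Their number above the share of all genes is therefore no result about them. The 12 h arrays lay on both slides and the 3 h arrays on 1, and the part of the slide in these differences was not tested. Groups of 3 arrays are too small for a test of single arrays.

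Of the 22 genes higher at 12 h, Ccl4 was higher by 2.69, Ccl3 by 2.15, Alox5ap by 2.06, Cxcr2 by 1.85, Tnf by 1.81, Cxcl3 by 1.68, Il1b by 1.61 and the platelet gene Ppbp by 1.31. The acute phase genes Lcn2 and Hp rose further by 2.91 and 2.11. F10 was higher by 1.92, the IL-36γ gene Il1f9 by 1.72, Mmp10 by 1.68, Grem1 by 1.59, Tnc by 1.14 and Epgn by 1.09. Of the genes called lower at 3 h, Ankrd37 was higher by 2.11, Tlr12 by 1.75, Dkk2 by 1.64, Cx3cr1 by 1.58, Zfp521 by 1.2 and Fzd2 by 1.13.

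Of the 21 genes lower at 12 h, Hspa1a differed by -2.49, Hspa1b by -2.31, Mt1 by -1.32 and Mt2 by -1.15. The transcription factor genes Myc, Fosl1 and Sox9 stood at -1.39, -1.36 and -1.15. The genes that lay outside the lists by function had the lowest values, Krt36 at -3.72 and Phox2a at -2.62. The EGF receptor ligands Btc and Areg stood at -1.97 and -1.61, and Tslp at -2.37. The transport genes Scnn1g, Slc20a1 and Kcnn4 stood at -2.2, -1.58 and -1.3. The glucocorticoid-induced Fkbp5 and Pdk4 stood at -1.45 and -1.05, the proteases Adamts9 and Adamts1 at -1.3 and -1.22, and F3 and Tnfrsf12a both at -1.17.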

How the results depend on the processing

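Counts are genes called higher and lower at 3 h, 1200 and 1520 as reported. Normexp background correction gave 630 and 207, and 826 of its 837 calls were shared with those reported. A test against a 2-fold difference (treat) gave 295 and 73, fold changes above 1.5 and above 4 gave 2249 and 2950 and 432 and 196, no fold threshold gave 3318 and 3590, and an adjusted p below 0.01 gave 960 and 992. A paired t-test, which the study's methods name for comparisons of 2 groups in general, was run here with samples paired by replicate number. It gave 983 and 1228 without adjustment and 0 and 0 after Benjamini-Hochberg adjustment. It is not how the study selected its array genes, which was in GeneSpring with a fold change above 2 and an FDR adjusted p below 0.05. Quantile normalization gave 1235 and 1197, 50.8% of them higher against 44.1%, and scaling to probes above background gave 1031 and 1958, 34.5% higher. With the replicate number as a block in limma the counts were 1168 and 1435, with 2554 genes shared, so that this block moved neither count by over 1.5 times. Leaving out 1 array gave 1065 to 1278 and 1094 to 1588. Of the 194 genes named or plotted, 132 were called under each setting other than treat, the paired t-test and the changed fold and p thresholds. The changed thresholds were counted over all genes only. Under the settings so covered, 0 of the 194 genes reversed in direction. Where a call was lost, the cause was not tested. Dim probes limit what can be said, since intensities near background move most with its correction.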
